A study of Mus musculus with 9 samples.

Results

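Gene expression of the 3 osteosarcoma lines 493H, 494H and 716H was compared with that of 3 osteoblast cultures of the Kusa4b10 line. These are 6 of the 9 arrays of the series. The other 3 hold undifferentiated Kusa4b10 cultures, named pre-osteoblasts, whose levels are given beside the comparison. All 19938 genes with a single gene symbol were tested, each through 1 probe set, that of the highest mean level on the 9 arrays. Genes on 11 cell cycle lists, 218 of them measured, were described apart from the 19720 genes outside these lists.

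Each osteosarcoma line gave 1 array. The lines came from tumours of adult C57BL/6 mice of the genotype Osx-Cre p53fl/fl Rbfl/fl, in which Cre recombinase under the osterix promoter, active in cells of the osteoblast lineage, deletes floxed p53 and Rb alleles. The labels describe the lines as p53-/- Rb-/- and fibroblastic, give 493H and 716H as female and 494H as male, and state that growing, subconfluent cultures below passage 8 were used. Osteoblasts were Kusa4b10 cells, a mouse bone marrow stromal line, after 21 days in medium with ascorbate. The pre-osteoblasts were the same line without this treatment. Strain, age and sex are not given for Kusa4b10 in the sources used here. All osteoblast arrays are independent samples of 1 line, so tumour state cannot be told apart from the line of origin, from p53 and Rb status or from growth state and medium.

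An osteoblast that matures leaves the cell cycle and lays down a collagen matrix that it then mineralises. The retinoblastoma protein Rb holds E2F transcription factors in check and so restrains the genes of DNA replication, while p53 induces cell cycle inhibitors and death genes after damage. Osteosarcoma is a tumour of bone-forming cells in which both suppressors are often lost. Expression levels and their differences, osteosarcoma minus osteoblast, are in log2 units, so a difference of 1 is a 2-fold difference. Differences are given with the standard error of the fit. A gene was called, and is said to have risen or fallen in osteosarcoma, where its adjusted p (limma, Benjamini-Hochberg over all genes) was below 0.05. In bulk RNA, a lower level from fewer cells that express a gene and one from less RNA per cell cannot be told apart.

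One line went against its sex label. The Y-linked transcripts Kdm5d, Uty and Eif2s3y stood at 8.76, 9.80 and 10.06 in 716H, labelled female, close to the 8.74, 9.51 and 9.88 of the male line 494H. In 493H, the other line labelled female, they were at 5.12, 4.82 and 3.91. Xist, the RNA of the inactive X chromosome, was at 5.56 in 716H, 5.27 in 494H and 12.70 in 493H. The Kusa4b10 arrays were low for all 4 transcripts. The library is therefore called "the line labelled 716H", and the main counts are also given without it.

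Array medians over probe sets lay between 7.43 and 7.49 in osteosarcoma and between 7.52 and 7.56 in osteoblasts. Correlations across genes were 0.982 to 0.987 among the lines and 0.994 to 0.998 among the osteoblast cultures, and genes had a median SD of 0.118 over the lines and 0.0823 over the osteoblast cultures. Osteoblast culture 2 stood apart. Its cell cycle genes exceeded the mean of cultures 1 and 3 by a median of 0.53, and it was the highest osteoblast culture on 191 of the 218, while genes outside the lists differed by a median of -0.002. Of the osteoblast markers, the bone sialoprotein Ibsp (12.91 to 13.62 in the osteoblast cultures), Dmp1 (10.35 to 11.07) and Phex (11.74 to 12.22) set these cultures apart. Alpl, Col1a1 and Sp7 overlapped the lines. The adipocyte markers Adipoq (11.95 to 12.81) and Retn (11.46 to 11.97) were high in the osteoblast cultures too. Trp53, Runx2 and the osteocalcin genes were not analysed here. Defining markers of leukocytes (Ptprc), macrophages (Csf1r), osteoclasts (Calcr), endothelium (Pecam1, Cdh5) and epithelium (Cdh1, Epcam) were at 5.97 to 7.13 on these 6 arrays, below the median level of all genes, 7.97. That range leaves out the macrophage marker Cd68 (difference -0.09, adjusted p = 0.684) and the osteoclast marker Acp5, which rose by 0.70. Mean levels over the 9 arrays exceeded 7.97 for 1 of 19 haematopoietic, 3 of 11 osteoclast, 0 of 12 endothelial and 1 of 12 epithelial genes.

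The comparison asks how the tumour lines differ from mature bone-forming cells, and how much of the difference is growth. In all, 4503 genes were called (22.6%), 2435 higher (12.2%) and 2068 lower (10.4%) in osteosarcoma. At least 2-fold differences were called for 756 genes that rose (3.79%) and 515 that fell (2.58%). Without the line labelled 716H, 4414 genes were called (22.1%), and 83.4% of the calls made on all 6 arrays were kept. Without osteoblast culture 1 the calls were 2226, and without culture 3 they were 2449, but none was opposite in direction under any of these settings. With each array centred on its median, 64.4% of the calls were rises, against 54.1% in the values as deposited.

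**Figure D1:**
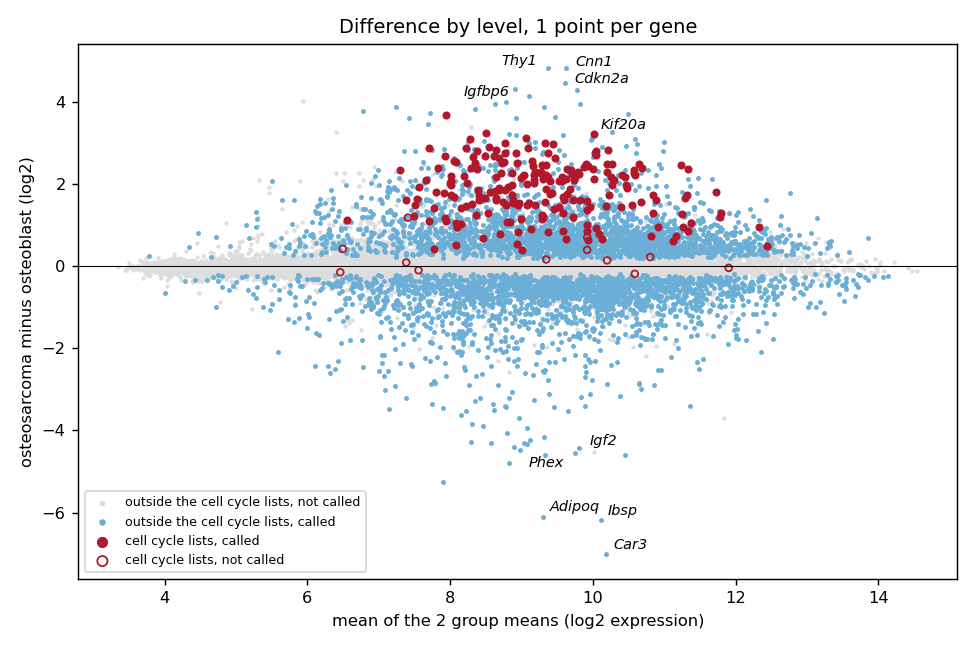
Difference (osteosarcoma minus osteoblast, log2) of each of the 19938 genes against the mean of both group means (log2 expression), with genes on the cell cycle lists in red and called genes filled. The cell cycle genes form a cloud that lies almost wholly above 0, while called genes outside the lists spread both ways, down to Car3 at -7.02 and up to Cnn1 at 4.82.

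Of the 218 cell cycle genes measured, 206 rose (94.5%, against 12.2% of all genes) and 0 fell. Their median difference was 1.81, against -0.02 for all genes, and 181 of them rose at least 2-fold. The lines lay wholly above the osteoblast cultures on 211 of them, against 19.6% of all genes, and wholly below on 1, against 19.1%. Without the line labelled 716H, 207 rose and 1 fell, and over all settings that left out 1 array the number that rose was 174 to 207. The mean level of the list genes was 10.04, 10.45 and 9.98 in lines 493H, 494H and the line labelled 716H, against 8.25, 8.76 and 8.15 in osteoblast cultures 1 to 3. The pre-osteoblast cultures stood at 9.42, 10.17 and 9.82. Every line thus exceeded every osteoblast culture, and the lines overlapped the pre-osteoblasts.

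**Figure D2:**
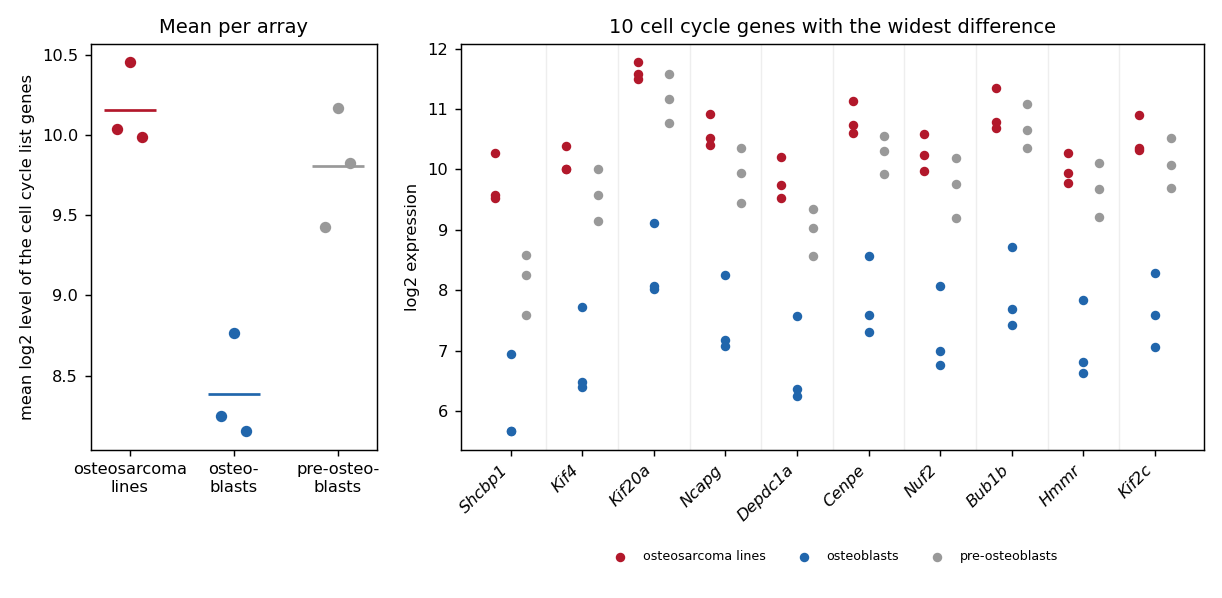
Left, mean log2 level of the 218 measured cell cycle list genes on each array, with a line at each group mean. Right, log2 expression of the 10 cell cycle genes with the widest called difference, 1 point per array. Every osteosarcoma point lies above every osteoblast point of the same gene, and osteoblast culture 2 is the highest osteoblast point throughout.

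Among the regulators, 8 of 10 E2F and MYB family genes rose (median 1.09), a count of 4 without osteoblast culture 1 and 5 without culture 3. Foxm1, a transcription factor for mitotic genes, rose by 2.06 ± 0.30 (adjusted p = 0.00697), and the repressive E2F factor E2f7 by 1.99 ± 0.26. The DREAM and MuvB subunit Lin54, at 0.40 ± 0.15, did not pass (adjusted p = 0.119). Of 17 cyclins and kinases of S phase and mitosis, 16 rose (median 1.61). The cyclins Ccna2 and Ccnb2 stood higher by 2.46 ± 0.39 and 2.36 ± 0.34, the S phase cyclin Ccne1 by 1.87 ± 0.24, and the phosphatase Cdc25c, which activates the mitotic kinase, by 2.68 ± 0.24. Wee1, the kinase that holds cells before mitosis, was at 10.05, 10.65 and 10.11 in the lines and at 10.20, 10.07 and 10.12 in the osteoblasts. Its groups overlapped, and the difference of 0.14 ± 0.17 did not pass (adjusted p = 0.617).

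The machinery of DNA replication rose nearly as a whole. Of 18 genes of origin licensing 17 rose (median 1.53), of 28 at the replication fork all 28 (1.51), and of 7 in nucleotide synthesis all 7 (1.69). Mcm6, a subunit of the replicative helicase, was at 10.95, 11.08 and 10.75 in the lines, against 8.56, 8.96 and 8.52 in the osteoblasts. The groups were well apart (2.25 ± 0.15, 4.75-fold, adjusted p = 0.00106), and the helicase subunits Mcm5, Mcm3 and Mcm4 rose by 2.12, 2.10 and 1.97. Thymidylate synthase, Tyms, which makes the thymine nucleotide, rose by 2.22 ± 0.12 (adjusted p = 7.88e-04). The ribonucleotide reductase subunit Rrm2 rose by 2.71 ± 0.35, more than the larger subunit gene Rrm1 (1.20 ± 0.20). The histone chaperone Asf1b (2.82 ± 0.31) and the polymerase Pole (2.64 ± 0.27) led the fork list. The licensing factor Cdt1, whose protein is regulated by degradation, missed the threshold at 0.70 ± 0.21 (adjusted p = 0.0609), and met it in 5 of 13 alternatives, among them without the line labelled 716H (0.87, adjusted p = 0.0350).

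Of 19 genes of recombination and the damage checkpoint, 18 rose (median 1.73), among them the Fanconi anaemia genes Fancb (2.54 ± 0.22) and Fancd2 (2.09 ± 0.22) and the checkpoint kinase Chek1 (2.46 ± 0.24). Of 18 listed genes of replication-dependent histones and other chromatin proteins, only 9 were measured, and all 9 rose (median 1.05). Topoisomerase Top2a was at 2.38 ± 0.32 and the variant histone gene H2az1 at 0.96 ± 0.08.

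The widest differences belonged to mitosis. Medians were 2.34 for the spindle checkpoint and mitotic kinases (22 of 24 rose), 2.21 for mitotic kinesins and spindle genes (36 of 39), 2.20 for the centromere and kinetochore (25 of 27) and 2.16 for condensin, cohesin and chromosome structure (20 of 20). Kif20a, a kinesin of cytokinesis, was at 11.50, 11.77 and 11.58 in the lines, against 8.08, 9.11 and 8.02 in the osteoblasts and 10.77, 11.58 and 11.17 in the pre-osteoblasts. Its lines lay close together and far above the osteoblasts (3.21 ± 0.30, 9.25-fold, adjusted p = 0.00212), and within the range of the pre-osteoblasts or just above it. Shcbp1, a midbody protein gene, showed the widest cell cycle difference, with 9.58, 10.27 and 9.53 in the lines against 5.68, 6.95 and 5.67 in the osteoblasts (3.69 ± 0.41, 12.9-fold, adjusted p = 0.00310). Next came Kif4 (3.25), the condensin subunit Ncapg (3.11), Depdc1a (3.10), the kinetochore motor Cenpe (3.00), the kinetochore subunit Nuf2 (2.99), the checkpoint kinase Bub1b (2.99), the spindle protein Hmmr (2.90) and the microtubule depolymerase Kif2c (2.88). All 10 calls held in every alternative run, the left-out arrays included.

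The members that did not rise were few. Zwint, a kinetochore linker, lay between 11.62 and 12.04 in the lines and between 11.69 and 12.05 in the osteoblasts, which overlap (-0.04 ± 0.15, adjusted p = 0.889). Bub3, a checkpoint protein that also serves outside mitosis, was at 0.22 ± 0.08 (adjusted p = 0.114, and 0.0407 with the arrays centred on their medians). Numa1, which tethers spindle poles, was the single list gene on which all lines lay below all osteoblasts, at 10.42, 10.47 and 10.59 against 10.65, 10.71 and 10.69. Its difference of -0.19 ± 0.06 did not pass (adjusted p = 0.0935), but passed without the line labelled 716H (-0.24, adjusted p = 0.0383).

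Promoters of these lists were read from RefSeq on the build GRCm38.p6, from 250 bases before to 50 after each gene's start, to show the letters the E2F and mitotic programmes are known for. E2F letters, TTCCCGC or TTGGCGC on either strand, stood in 37 of 80 promoters of the replication and repair lists (46.2%, for 67 of 82 genes matched), against 6.81% of all 32851 promoters and 25% of those of the mitosis lists. A CCAAT box together with the CHR element (TTTGAA), on either strand, stood in 43 of 104 promoters of the mitosis lists (41.3%, for 94 of 110 genes matched), against 6.95% of all promoters. These matches describe letters, not bound sites. An example of each is printed 5′ to 3′ on the gene's strand, as the 150 bases before the start, with the matches in capitals: 2 E2F matches in Mcm6 (chr1:128359706-128359855, minus strand), and in Depdc1a (chr3:159495283-159495432, plus strand) the CCAAT box followed by TTCAAA, the CHR element on the opposite strand.
Mcm6: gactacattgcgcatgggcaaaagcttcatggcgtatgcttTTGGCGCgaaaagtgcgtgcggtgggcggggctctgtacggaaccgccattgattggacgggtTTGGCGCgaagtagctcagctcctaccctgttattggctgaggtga
Depdc1a: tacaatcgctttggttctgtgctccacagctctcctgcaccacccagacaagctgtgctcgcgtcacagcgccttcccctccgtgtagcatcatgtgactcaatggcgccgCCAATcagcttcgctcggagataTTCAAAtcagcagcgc

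Cell cycle genes made up 8.46% of all genes that rose and 23.9% of those that rose at least 2-fold. Outside the lists, 2229 of 19720 genes rose (11.3%) and 2068 fell (10.5%), 575 and 515 of them at least 2-fold, with a median difference of -0.02. Without the line labelled 716H these were 2325 and 1881. To sort them by their relation to growth, each gene's levels over the 9 arrays were correlated with the mean of the cell cycle genes. A Pearson r of at least 0.9 was found for 186 of the 218 list genes (85.3%), which themselves make up that mean. Over all 19720 genes outside the lists, called or not, 564 reached it. Of the 2229 that rose, 550 reached it (24.7%), and the remaining 1679 lay below it. Nearly all outside genes with this r were genes that rose, which largely follows from the cell cycle mean being lowest in the osteoblasts. Among those that rose at least 2-fold, 196 reached this r and 379 did not. The 9 points fall in 3 groups, so r describes how a gene is spread over these arrays and is not a test.

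The pre-osteoblasts, undifferentiated cultures of the Kusa4b10 line, give a further description. Their mean lay between those of osteosarcoma and osteoblasts for 171 of the 206 cell cycle genes that rose, at or above the osteosarcoma mean for 34, and at or below the osteoblast mean for 1. For the 2229 other genes that rose these numbers were 1279, 572 and 378.

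A further list mixed genes that brake the cycle with genes that drive it, such as D cyclins and Cdk4. Its counts therefore give no direction for the brakes alone. Of 21 CDK inhibitors, D cyclins, pocket proteins and related p53 and RB family genes, 5 rose (23.8%) and 4 fell (19%), against 12.2% and 10.4% of all genes. The median was 0.08, and 2 fell without osteoblast culture 1. Cdkn2a, which encodes the tumour suppressors p16Ink4a and p19Arf, was at 11.79, 11.46 and 12.28 in the lines, against 7.39, 7.43 and 7.34 in the osteoblasts and a mean of 7.47 in the pre-osteoblasts. The lines stood alone at the high level (4.45 ± 0.20, 21.9-fold, adjusted p = 5.17e-04). Its neighbour Cdkn2b, which encodes p15Ink4b, rose by 1.33 ± 0.17 (adjusted p = 0.00438). Transcripts of p16Ink4a and p19Arf were not measured apart.

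Rb1, the gene floxed in the tumour model, was at 9.26, 9.67 and 9.85 in the lines, against 10.65, 10.63 and 10.64 in the osteoblasts and 9.28, 9.28 and 9.17 in the pre-osteoblasts. It fell against osteoblasts (-1.05 ± 0.15, adjusted p = 0.00657). Line 493H lay within the range of the pre-osteoblasts, and 494H and the line labelled 716H lay above it. Where the probes lie relative to the deleted part was not used, so the Rb1 level checks no deletion. The relatives of Rb1 parted: Rbl1, which encodes p107 and is itself an E2F target, rose by 1.21 ± 0.18 (adjusted p = 0.00706), and Rbl2, which encodes p130 of resting cells, fell by 0.81 ± 0.05 (-0.81, adjusted p = 9.71e-04). The kinase gene Cdk4 was at 13.49, 13.52 and 13.42 in the lines and at 13.49, 13.52 and 13.58 in the osteoblasts, overlapping levels near the top of the scale (-0.06 ± 0.06, adjusted p = 0.544).

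Of 37 known p53 target genes measured, 16 fell (43.2%) and 3 rose (8.11%), against 10.4% and 12.2% of all genes. Their median was -0.33. Only 7 fell and 1 rose without osteoblast culture 1, and 10 fell without culture 3. Of the 3 that rose, Ckap2 (2.07 ± 0.34) and Gtse1 (1.17 ± 0.12) also stand on the cell cycle lists, and the call of Ckap2 was lost without osteoblast culture 1 (adjusted p = 0.0511). The third, the apoptosome gene Apaf1 (0.29 ± 0.06), was lost with a variance trend and robust prior (adjusted p = 0.0528) and without any 1 osteoblast culture (adjusted p up to 0.0984). Trp53inp1, a stress-induced cofactor of p53, was at 10.20, 9.31 and 10.48 in the lines, against 12.35, 11.98 and 12.27 in the osteoblasts. It fell without overlap (-2.21 ± 0.31, adjusted p = 0.00587). The death receptor gene Eda2r fell by 2.15 ± 0.31 (-2.15), the detoxifying enzyme Ephx1 by 2.00 ± 0.19 (-2.00) and the lipid transfer protein Pltp by 2.27 ± 0.26 (-2.27). The costimulatory ligand Cd80, a p53 target described in human cells, was at 8.03, 6.84 and 6.44 in the lines and 10.81, 11.00 and 11.34 in the osteoblasts (-3.94 ± 0.42, adjusted p = 0.00282). Among the best known targets, Mdm2 differed by -0.19 ± 0.58 (adjusted p = 0.854) and the death receptor Fas by -0.49 ± 0.48 (adjusted p = 0.538). Without 493H, Mdm2 was called lower (-0.88, adjusted p = 0.0122).

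**Figure D3:**
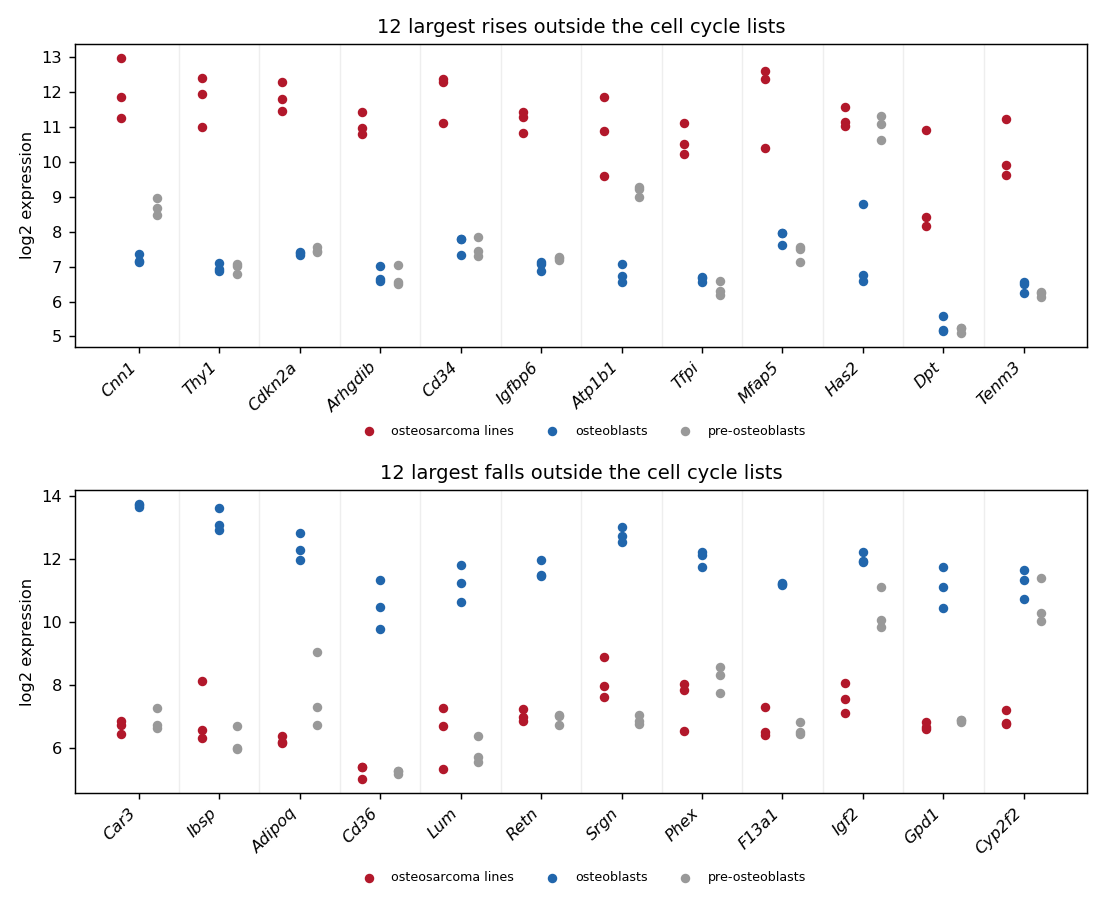
Log2 expression of the 12 genes outside the cell cycle lists with the largest called rises (top) and the 12 with the largest called falls (bottom), 1 point per array, with the pre-osteoblasts in grey. Osteosarcoma and osteoblast points do not overlap for any of the 24 genes, which were chosen for that. Has2 is the only rise on which the pre-osteoblast points overlap those of osteosarcoma.

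Cnn1, the smooth muscle actin-binding protein calponin, was at 11.85, 11.26 and 12.98 in the lines, against 7.12, 7.36 and 7.17 in the osteoblasts and a mean of 8.71 in the pre-osteoblasts. All lines stood above every Kusa4b10 array, and against the osteoblasts this was the largest rise named here (4.82 ± 0.42, 28.2-fold, adjusted p = 0.00191), with the line labelled 716H highest. Thy1, a surface glycoprotein of fibroblasts and stromal cells, was at 11.95, 11.00 and 12.39 against 6.93, 6.86 and 7.11 (4.82 ± 0.35, 28.1-fold, adjusted p = 0.00124). The osteoblast and pre-osteoblast levels of Thy1 were alike, with means of 6.96 and 6.96. Igfbp6, a secreted protein that binds IGF2, was at 11.43, 10.82 and 11.27 in the lines and 7.08, 6.88 and 7.13 in the osteoblasts (4.14 ± 0.17, 17.6-fold, adjusted p = 3.68e-04), with tight groups on both sides.

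Next in size were Arhgdib, best known in blood cells (4.33 ± 0.19), the progenitor and fibroblast surface protein Cd34 (4.28 ± 0.36), the sodium pump subunit Atp1b1 (4.0 ± 0.56) and the coagulation inhibitor Tfpi (3.96 ± 0.22). They were followed by the microfibril protein Mfap5 (3.94 ± 0.58), the hyaluronan synthase Has2 (3.87 ± 0.60), the matrix protein Dpt (3.87 ± 0.74) and the adhesion protein Tenm3 (3.83 ± 0.42). Dpt was at 10.92, 8.43 and 8.17 in the lines, highest in 493H, against 5.18, 5.60 and 5.15 in the osteoblasts, and its call was lost without osteoblast culture 1 or 3 (adjusted p up to 0.07). Has2 was at 11.02, 11.15 and 11.56 in the lines and 11.31, 11.09 and 10.62 in the pre-osteoblasts, against 6.59, 8.79 and 6.76 in the osteoblasts. The low level was thus that of the osteoblasts alone, and Has2 and Atp1b1 were the only genes of these 12 with an r of at least 0.9 with the cell cycle mean (0.932 and 0.934). Of these 12 calls, only that of Dpt was lost in any alternative.

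Of 28 smooth muscle and myofibroblast genes, 12 rose (42.9%) and 0 fell, against 12.2% and 10.4% of all genes. Their median was 0.64. The rises were 6 without osteoblast culture 1 and 7 without culture 3, and 1 gene fell without 494H. Beside Cnn1, the tropomyosin Tpm2 rose by 1.57 ± 0.24 (adjusted p = 0.00766) and the actin-associated Pdlim7 by 1.07 ± 0.12 (adjusted p = 0.00338). Acta2, smooth muscle actin, was at 13.33, 13.46 and 13.71 in the lines and 12.49, 13.39 and 12.58 in the osteoblasts. Culture 2 reached into the range of the lines, and the difference of 0.68 ± 0.26 did not pass (adjusted p = 0.127), although it passed without culture 2 (adjusted p = 0.0134). Smooth muscle myosin, Myh11, and its activator Myocd did not pass either (0.14 ± 0.08 and 0.10 ± 0.14). Over the list, osteoblast culture 2 exceeded the mean of the other osteoblast cultures by a median of 0.42. Of the 12 genes that rose, 7 had an r of at least 0.9 with the cell cycle mean, against 24.7% of all outside genes that rose. Without osteoblast culture 2, 17 genes of the list rose.

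Among 21 stromal and fibroblast markers, 6 rose (28.6%) and 4 fell (19%), against 12.2% and 10.4% of all genes. Without osteoblast culture 3, 2 fell. Endoglin, Eng, a TGF-beta co-receptor, was at 10.63, 10.45 and 10.72 against 7.55, 7.76 and 7.48, clear of every osteoblast culture (3.00 ± 0.10, adjusted p = 2.68e-04). The mesenchymal cadherin Cdh11 rose by 2.13 ± 0.20 and S100a4 by 1.35 ± 0.20. In the other direction, the fibroblast protease Fap was at 6.91, 6.30 and 6.92 in the lines and 10.47, 9.71 and 9.83 in the osteoblasts (-3.29 ± 0.26, adjusted p = 0.00154), and the ectoenzyme Nt5e fell by 2.43 ± 0.44 (-2.43). Vimentin, Vim, which all mesenchymal cells carry, was at 14.08, 14.09 and 14.06 against 13.92, 14.04 and 13.92 (0.11 ± 0.06, adjusted p = 0.231).

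Of 29 bone matrix and mineralisation genes, 9 fell (31%) and 1 rose (3.45%), against 10.4% and 12.2% of all genes. Their median was -0.35. The rise was that of podoplanin, Pdpn (1.28 ± 0.10), an early osteocyte gene, and 2 rose without 494H and 3 without osteoblast culture 2. Ibsp, the bone sialoprotein of mineralising matrix, was at 6.59, 6.34 and 8.13 in the lines, against 13.07, 13.62 and 12.91 in the osteoblasts and a mean of 6.23 in the pre-osteoblasts. The line labelled 716H was highest of the lines, still far below every osteoblast culture (-6.18 ± 0.50, 72.5-fold lower, adjusted p = 0.00157). Phex, a peptidase of osteocytes that controls phosphate, was at 7.85, 8.05 and 6.54 against 12.11, 12.22 and 11.74 (-4.54 ± 0.41, adjusted p = 0.00196). The osteocyte matrix protein Dmp1 was at 6.28, 6.71 and 6.29 against 11.07, 10.35 and 10.75 (-4.30 ± 0.21, adjusted p = 6.50e-04). None of these 3 genes exceeded 8.13 in any line.

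The phosphatase Phospho1 (-3.52 ± 0.21) and the secretory kinase Fam20c (-2.76 ± 0.30), fell as well, both of them mineralisation genes. In all, 14 of the 29 lay wholly below the osteoblasts, against 19.1% of all genes. Collagen I, Col1a1, was at 13.42, 12.81 and 13.53 in the lines and 13.22, 13.72 and 12.99 in the osteoblasts (-0.06 ± 0.26, 95% interval -0.70 to 0.58), and Sparc was at -0.04 ± 0.11. Alkaline phosphatase, Alpl, was at 9.69, 10.22 and 12.37 in the lines and 11.80, 13.01 and 11.66 in the osteoblasts. The line labelled 716H lay within the osteoblast range, and the difference of -1.40 ± 0.77 did not pass (adjusted p = 0.270), but did without that line (-2.20, adjusted p = 0.0336).

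Of 18 osteoblast transcription factors, 3 rose (16.7%) and 4 fell (22.2%), against 12.2% and 10.4% of all genes. Without osteoblast culture 1, 2 fell. The Notch target Hey1 (-2.09 ± 0.16) and the homeobox factor Dlx3 (-1.17 ± 0.10) fell, and Zfp521 (2.02 ± 0.18), a zinc finger protein that opposes Runx2, Twist1 (0.99 ± 0.14) and the AP-1 factor Fosl2 (0.69 ± 0.11) rose. Sp7, osterix itself, was at 7.84, 8.52 and 9.24 in the lines and 9.34, 10.75 and 8.93 in the osteoblasts, which overlap (-1.14 ± 0.57, adjusted p = 0.225).

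Fat cell genes fell almost without exception. Of 14 adipocyte markers, 13 fell (92.9%) and 0 rose, against 10.4% and 12.2% of all genes, with a median of -2.43. The mean level of the list was 8.34, 7.92 and 8.26 in the lines, against 11.41, 10.86 and 11.02 in the osteoblasts and 8.61 to 9.06 in the pre-osteoblasts. Car3, carbonic anhydrase 3 of fat and muscle, was at 6.73, 6.46 and 6.85 in the lines and 13.74, 13.64 and 13.70 in the osteoblasts. This was the widest difference of all genes tested (-7.02 ± 0.11, 129.6-fold lower, adjusted p = 2.56e-05). The adipocyte hormone Adipoq was at 6.16, 6.38 and 6.21 against 12.81, 11.95 and 12.28 (-6.10 ± 0.22, adjusted p = 2.68e-04).

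The fatty acid transporter Cd36 (-5.25 ± 0.39), the hormone Retn (-4.60 ± 0.17), the lipid droplet coats Plin1 (-3.21 ± 0.29) and Plin4 (-2.77 ± 0.17) and the fatty acid binding protein Fabp4 (-3.00 ± 0.41) belong to the same list. Pparg, the transcription factor that drives fat cell formation, was at 10.66, 9.96 and 9.81 in the lines and 12.16, 11.62 and 11.88 in the osteoblasts (-1.74 ± 0.26, adjusted p = 0.00692). The high levels were those of the osteoblast cultures, whose share of fat cells was not measured, and the part of such cells in the other differences was not tested. The glycerol phosphate dehydrogenase Gpd1 (-4.41 ± 0.32), not on the list, fell alongside, as did Srgn (-4.60 ± 0.34), the clotting factor F13a1 (-4.47 ± 0.24) and the cytochrome P450 Cyp2f2 (-4.32 ± 0.26). None of the 12 largest falls was lost in any alternative.

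Of 17 genes of the IGF axis 2 rose (11.8%) and 3 fell (17.6%), against 12.2% and 10.4% of all genes, and 4 rose without 494H. Igf2, the fetal growth factor, was at 7.57, 7.13 and 8.06 in the lines, against 12.22, 11.93 and 11.90 in the osteoblasts and 11.11, 9.84 and 10.05 in the pre-osteoblasts. The lines alone were low (-4.43 ± 0.24, 21.6-fold lower, adjusted p = 7.64e-04). The binding proteins Igfbp6, given above, and Igfbp3 (2.43 ± 0.16, adjusted p = 0.00109) rose. The clearance receptor Igf2r fell by 0.80 ± 0.07 (-0.80) and Igfals, a subunit of the circulating binding complex, by 0.34 ± 0.09 (-0.34, adjusted p = 0.0475), a call lost in 9 of 12 alternatives, and the ligand Igf1 and the signalling receptor Igf1r did not pass (0.38 ± 0.28 and 0.13 ± 0.07).

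Most matrix genes outside mineralisation did not pass. Of 32 collagen chains, 6 fell (18.8%) and 1 rose (3.12%), against 10.4% and 12.2% of all genes. The rises were 3 without 494H and 5 without osteoblast culture 2. The basement membrane chains Col4a2 (-2.01 ± 0.17), Col4a1 (-1.64 ± 0.20) and Col15a1 (-1.76 ± 0.26) fell. Of 15 small leucine-rich proteoglycans 2 fell (13.3%, against 10.4% of all genes). These were Lum, at 5.35, 6.69 and 7.26 against 10.63, 11.80 and 11.23 (-4.79 ± 0.55, adjusted p = 0.00344), and Dcn (-3.39 ± 0.47), both regulators of collagen fibrils. Biglycan, Bgn, was at 0.12 ± 0.07, and 1 gene of the list rose without 494H or without osteoblast culture 2. Of 28 matrix remodelling enzymes, 4 rose (14.3%) and 6 fell (21.4%), against 12.2% and 10.4% of all genes. The falls were 2 without osteoblast culture 1 and 3 without culture 3. The urokinase gene Plau (2.50 ± 0.41) and the collagen crosslinker Lox (1.17 ± 0.16) rose, and the metalloprotease Mmp11 (-2.51 ± 0.41) and Loxl4 (-1.61 ± 0.21) fell. Of 30 integrins and laminins 2 rose (6.67%) and 5 fell (16.7%), against 12.2% and 10.4% of all genes, with Itga10 at -2.02 ± 0.31. Without any 1 osteoblast culture no rise remained, and without 493H 1 did. The falls were 2 without culture 1 and 3 without culture 3 or 493H.

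Of 40 Wnt ligands and receptors, 7 rose (17.5%) and 6 fell (15%, and 3 genes without osteoblast culture 1), near the 12.2% and 10.4% of all genes. Wnt5a, a noncanonical ligand, was at 9.31, 8.57 and 9.37 against 6.73, 6.67 and 6.73, with no overlap (2.37 ± 0.22, adjusted p = 0.00201), and its receptor Ror2 (1.35 ± 0.18) and the receptors Fzd2 (1.54 ± 0.21) and Fzd3 (1.53 ± 0.06) rose. Of 24 secreted and intracellular Wnt antagonists, 1 rose (4.17%) and 3 fell (12.5%), against the same 12.2% and 10.4%. These counts became 4 risen without 494H and 1 fallen without 493H or the line labelled 716H. The single rise, Sfrp2 (1.60 ± 0.36), was lost without 493H, the line labelled 716H or any 1 osteoblast culture (adjusted p up to 0.100). Nkd2, an intracellular antagonist, fell by 2.21 ± 0.39 (-2.21, adjusted p = 0.0121). Wif1, the secreted Wnt inhibitor on which the study centred, was at 6.66, 6.56 and 7.41 in the lines and 7.94, 9.95 and 7.97 in the osteoblasts. The groups did not overlap, but the difference of -1.74 ± 0.60 did not pass on these 6 arrays (adjusted p = 0.0945), and passed when all 9 arrays shared 1 estimate of spread (adjusted p = 0.0357).

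In BMP and TGF-beta signalling, 9 of 36 genes rose (25%) and 5 fell (13.9%), against 12.2% and 10.4% of all genes. The rises were 14 without 494H, and the falls were 2 without osteoblast culture 1 or 3 and 3 without culture 2, 493H or 494H. Id2, a BMP target that blocks differentiation factors, was at 12.47, 11.94 and 11.87 against 9.09, 9.35 and 8.95 (2.96 ± 0.19, adjusted p = 0.00102), and Id3 rose by 1.65 ± 0.22. The ligand Tgfb1 fell by 1.78 ± 0.12 (-1.78, adjusted p = 0.00115). Of 30 genes of PDGF, FGF and EGF signalling, 7 rose (23.3%) and 4 fell (13.3%), against the same 12.2% and 10.4%. Without osteoblast culture 1 or 3 the rises were 4, and without culture 1 the falls were 2. The feedback inhibitor Spry1 was at 9.21, 9.27 and 9.19 in the lines, against 12.03, 11.88 and 12.28 in the osteoblasts and a mean of 7.62 in the pre-osteoblasts (-2.84 ± 0.11, adjusted p = 2.95e-04). The receptor Fgfr1 fell by 0.93 ± 0.07 (-0.93), and the EGF family ligand Nrg1 rose by 1.43 ± 0.08.

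Cholesterol synthesis was the list outside the cell cycle that rose most fully. Of 20 genes 18 rose (90%), all at least 2-fold, and 0 fell, against 12.2% and 10.4% of all genes. Their median was 1.58. The mean level was 11.25, 11.43 and 11.24 in the lines, against 9.56, 10.08 and 9.51 in the osteoblasts and 11.72 to 11.91 in the pre-osteoblasts. Stard4, a cholesterol carrier, was at 10.78, 10.71 and 10.60 against 7.51, 8.00 and 7.52 (3.02 ± 0.15, adjusted p = 6.32e-04). Hmgcs1, the enzyme that feeds the mevalonate pathway, was at 12.18, 12.49 and 12.34 against 10.31, 10.73 and 10.13 (1.95 ± 0.17, adjusted p = 0.00191). Both lay clear of the osteoblasts.

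The isoprenoid isomerase Idi1 (3.12 ± 0.38), the demethylase Cyp51 (2.34 ± 0.39) and Srebf2 (1.06 ± 0.15), the transcription factor that drives the pathway, rose too, while its brake Insig1 (0.13 ± 0.13) and the isomerase Ebp (-0.08 ± 0.15) did not pass. Of the 18 that rose, 8 had an r of at least 0.9 with the cell cycle mean, against 24.7% of all outside genes that rose. Osteoblast culture 2 exceeded the other osteoblast cultures on this list by a median of 0.51. The count of rises was 16 to 18 with any 1 array left out.

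**Figure D4:**
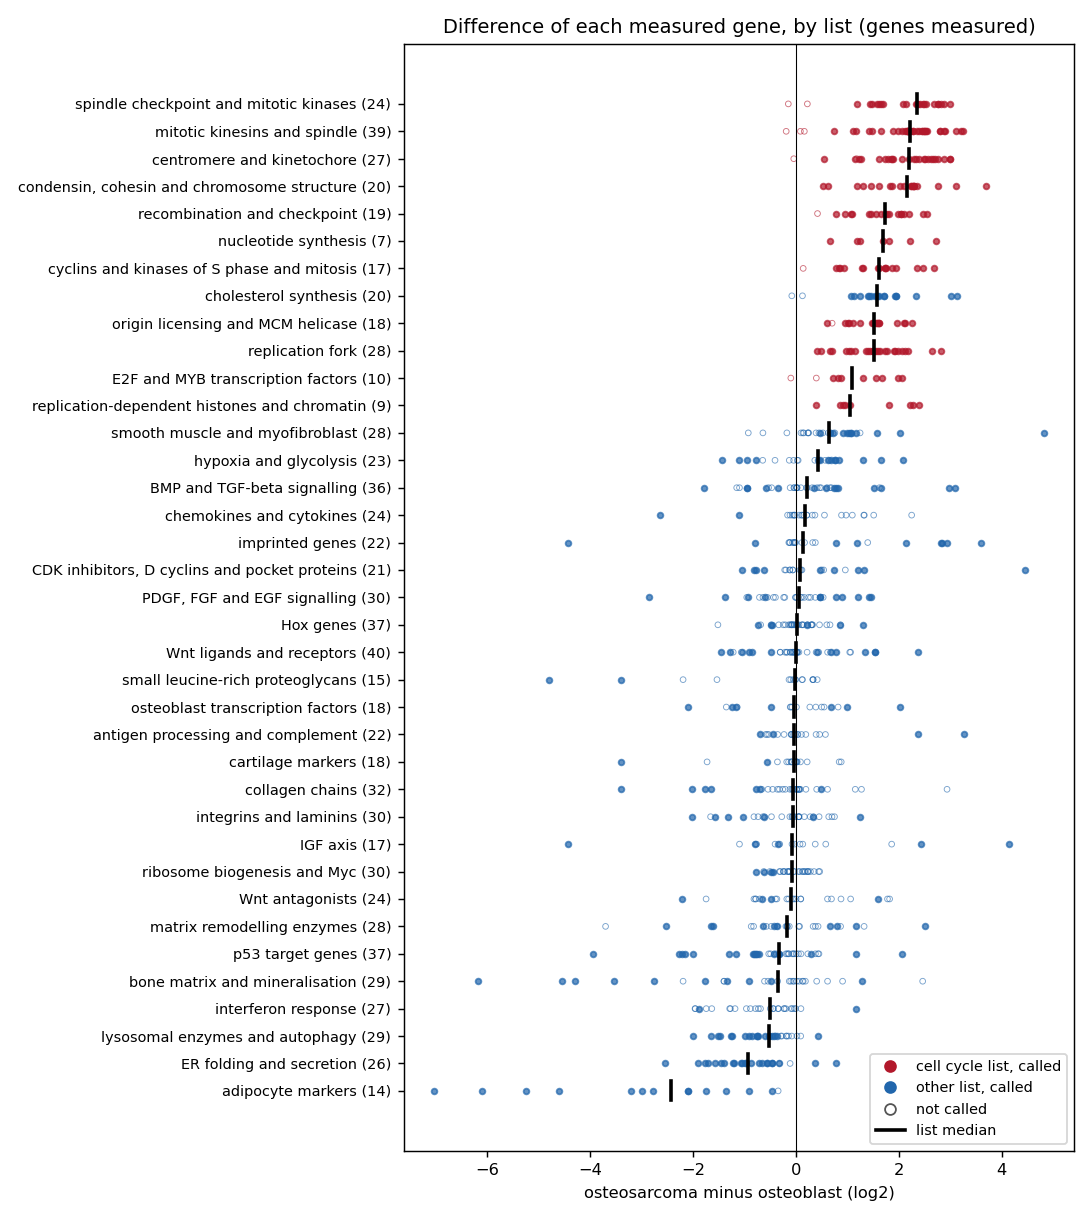
Difference (osteosarcoma minus osteoblast, log2) of each measured gene, by list, with called genes filled, cell cycle lists in red and a bar at each list's median; the number of genes measured is in brackets. All cell cycle lists have medians of at least 1.05, cholesterol synthesis lies among them at 1.58, and endoplasmic reticulum folding (-0.92) and adipocyte markers (-2.43) lie lowest.

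Chaperones and secretory genes of the endoplasmic reticulum (ER) went the other way. Of 26, 21 fell (80.8%) and 2 rose (7.69%, and 1 gene without osteoblast culture 1), against 10.4% and 12.2% of all genes. Their median was -0.92, and 23 lay wholly below the osteoblasts, against 19.1% of all genes. Ddit3, the stress transcription factor CHOP, was at 9.90, 9.32 and 9.84 in the lines, against 12.20, 12.01 and 12.46 in the osteoblasts and a mean of 9.76 in the pre-osteoblasts (-2.54 ± 0.19, adjusted p = 0.00137). The secreted folding factor Creld2 was at 11.59, 11.38 and 11.58 against 12.99, 12.91 and 13.39 (-1.58 ± 0.14, adjusted p = 0.00196). The osteoblasts were higher on both without overlap. The cochaperone Dnajb9 (-1.90 ± 0.19), Sdf2l1 (-1.76 ± 0.15), the kinase-like Trib3 (-1.71 ± 0.22), Hyou1 (-1.46 ± 0.16) and the central chaperone Hspa5 (-0.72 ± 0.07) fell. The collagen-folding isomerase subunit P4hb missed the threshold at -0.11 ± 0.12 (adjusted p = 0.570), and the COPII coat gene Sec24d rose by 0.78 ± 0.13.

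Promoter letters of these metabolic lists were read in the same way. The ER stress response element, CCAAT followed after 9 bases of any kind by CCACG, on either strand and so including a CCAAT box, stood in 8 of 22 promoters of the folding list (36.4%, for 22 of 26 genes matched), against 0.119% of all promoters. The sterol response element, TCACNCCAC on either strand, stood in 1 of 19 promoters of the cholesterol list (5.26%, for 16 of 20 genes matched), against 1.24% of all promoters and 2 of 22 promoters of the folding list (9.09%). The match in Hmgcs1 (chr13:119690201-119690350, plus strand) and that in Creld2 (chr15:88819496-88819645, plus strand, the element read on the opposite strand) are in capitals, again in the 150 bases before the start on GRCm38.p6.
Hmgcs1: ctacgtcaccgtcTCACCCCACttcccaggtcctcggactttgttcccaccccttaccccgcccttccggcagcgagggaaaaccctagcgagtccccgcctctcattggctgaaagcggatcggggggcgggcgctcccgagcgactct
Creld2: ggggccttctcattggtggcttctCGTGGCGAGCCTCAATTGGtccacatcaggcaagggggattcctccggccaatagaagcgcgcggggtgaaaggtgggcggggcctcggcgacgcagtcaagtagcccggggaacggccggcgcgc

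Lysosomal enzymes and autophagy genes were lower on balance: 18 of 29 fell (62.1%) and 1 rose (3.45%), against 10.4% and 12.2% of all genes. Their median was -0.51. The falls were 7 without osteoblast culture 1, 8 without culture 3 and 11 without 493H, and the rise was lost without any 1 of the lines or without osteoblast culture 1 or 3. The protease genes Ctsf (-2.00 ± 0.20), Tpp1 (-1.51 ± 0.15) and Ctsh (-1.27 ± 0.09) and the sialidase Neu1 (-1.47 ± 0.13) fell. The membrane protein gene Lamp2 was at 13.10, 12.87 and 13.20 in the lines and 13.28, 13.14 and 13.30 in the osteoblasts, which overlap (-0.19 ± 0.10, adjusted p = 0.267).

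Hypoxia and glycolysis gave 10 of 23 genes higher (43.5%) and 4 lower (17.4%), against 12.2% and 10.4% of all genes. Their median was 0.44, but only 2 rose without osteoblast culture 1 and 4 without culture 3. The oxygen sensor gene Egln3 (2.08 ± 0.35) and the kinase Pdk1 (1.31 ± 0.22), which turns pyruvate away from the mitochondria, rose, calls lost without osteoblast culture 1, and for Egln3 also without culture 3 (adjusted p up to 0.0521 and 0.0534). The glycolytic enzyme Eno2 (-1.43 ± 0.10) and the angiogenic factor Vegfa (-1.11 ± 0.18) fell. Ribosome biogenesis and Myc genes, which also serve growth, did not rise: 0 of 30 rose and 4 fell (13.3%, near the 10.4% of all genes). Over all genes 12.2% rose. The median of these 30 was -0.08. Without 494H, 9 of these fell, without osteoblast culture 1 none did, without culture 3 it was 1, and without culture 2 or 493H it was 2. The nucleolar gene Ncl was at 12.61, 12.94 and 12.43 in the lines and 12.64, 12.58 and 12.60 in the osteoblasts (0.05 ± 0.13, adjusted p = 0.835).

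Immune genes varied between the lines. Of 27 interferon response genes, 1 rose and 1 fell (3.7% each, against 12.2% and 10.4% of all genes), with a median of -0.50. The mean level of the list was 9.90 in 493H, 8.78 in 494H and 8.13 in the line labelled 716H, against 9.74, 9.32 and 9.82 in the osteoblasts. Without 493H, 9 genes fell, while without osteoblast culture 1 or 3 no call remained in this list. Of 22 genes of antigen processing and complement 2 rose and 2 fell (9.09% each, against 12.2% and 10.4% of all genes). The falls were 5 without 493H, 0 without osteoblast culture 1 and 1 without culture 3. The complement genes C2 (2.38 ± 0.07, adjusted p = 2.68e-04) and the inhibitor Serping1 (3.26 ± 0.53, adjusted p = 0.00944) were those that rose. Of 24 chemokines and cytokines 0 rose and 2 fell (8.33%, against 10.4% of all genes), and up to 3 rose where 1 line was left out. The fall of the osteoprotegerin gene Tnfrsf11b, at 7.26, 7.37 and 8.90 against 10.23, 11.04 and 10.18, was lost without 493H or any 1 osteoblast culture (-2.64 ± 0.50, adjusted p = 0.0152, and up to 0.0564 in those settings).

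Markers of other cell types were compared as well. Of 19 haematopoietic genes 1 rose and 1 fell (5.26% each), against 12.2% and 10.4% of all genes. Of 12 endothelial genes 0 rose and 1 fell (8.33%), and of 12 epithelial genes 0 were called. These single calls were lost when 1 array was left out, and 1 epithelial gene was called higher without the line labelled 716H. Of 18 cartilage markers 2 fell (11.1%, near the 10.4% of all genes) and 0 rose. Of these 2, Col10a1, the collagen of hypertrophic cartilage, was at 6.65, 6.63 and 7.95 in the lines and 10.65, 9.38 and 11.40 in the osteoblasts (-3.40 ± 0.61, adjusted p = 0.0126). This call was lost without osteoblast culture 1 (adjusted p = 0.0608). The list gave 0 falls without that culture and 1 without culture 2, culture 3 or 493H. Of 11 osteoclast genes 1 rose (9.09%) and 3 fell (27.3%), against 12.2% and 10.4% of all genes. Without osteoblast culture 1 or 3, 1 fell, and without culture 2, 2 rose. The proton pump subunit Atp6v0d2 fell by 1.62 ± 0.19 (-1.62), and the acid phosphatase Acp5 rose by 0.70 ± 0.11.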

How the data were processed

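RNA of 9 samples had been hybridised to 1 expression array each, with 3 arrays per group. The authors deposited log2 levels, 1 per probe set, from RMA processing. RMA and the build mm9 are named in the submitters' processing notes, without a version. Because RMA normalizes between arrays, a change of all genes together cannot be seen, and differences near background are compressed. Of 35556 probe sets, 21789 had 1 gene symbol in the platform annotation, 1621 had several and 12146 had none. A reference gene table matched 21698 of those with 1 symbol and changed 0 symbols. For 999 genes with more than 1 probe set, the one with the highest mean over the 9 arrays was kept.

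The 6 compared arrays were fitted with 2 group means in limma 3.58.1 and R 4.3.3 (lmFit, then eBayes; residual degrees of freedom 4, prior 1.87), two-sided, with no filter on level and Benjamini-Hochberg adjustment over 19938 genes. With 3 arrays against 3, an exact permutation test of a single value could not go below p = 0.1, and the number of arrays limits the precision. The fit was tested on simulated data. No pair of arrays within a group had more than 4.33% of its deposited values exactly equal (no tolerance), so none was taken as deposited more than once.

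The members and the 44 gene lists were chosen with earlier results of these data known. Named genes are Rb1, Wif1, Cnn1, Kif20a and Igfbp6; the 12 largest rises and 12 largest falls outside the cell cycle lists and the 10 largest cell cycle differences, among called genes with non-overlapping groups whose higher mean exceeds 7.97 (clone-like names left out); and up to 6 called members and 1 uncalled member per list. Further list members, such as Mdm2, Apaf1, Alpl, Pparg and Hspa5, and the sex and cell type markers were named after their values were seen. Alternatives were all 9 arrays in the fit, genes above the median level alone, the mean instead of 1 probe set, a further quantile normalization, centring on array medians, a variance trend with robust prior, 1 array weight per group and each array left out. Promoter sequences are from RefSeq, GRCm38.p6, a build other than mm9; no coordinates from the arrays were used.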

Additional observations from a re-analysis of the deposited data

How the results depend on the processing

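No paired analysis was possible because the tumour lines and the Kusa4b10 cultures are separate sources, and nothing in the labels pairs them. With 1 array left out, the number of genes that rose in osteosarcoma was 1239 to 2532 and that fell 987 to 2092, and 566 to 803 and 365 to 516 of these changed at least 2-fold. Cell cycle genes that rose were 174 to 207 and those that fell 0 to 1. Outside the cell cycle lists 1065 to 2325 rose and 987 to 2092 fell, and 405 to 632 and 365 to 516 did so at least 2-fold. The lowest counts came without osteoblast culture 1 (1239 risen and 987 fallen) or culture 3 (1349 and 1100), the arrays closest to each other. Over 282 named genes and all alternatives, 3382 of 3628 values kept their direction and their side of the threshold, 219 were no longer past it, 27 were newly past it and 0 reversed; 207 genes kept both throughout. Calls numbered 5459 with all 9 arrays in the fit, 4517 with the mean of probe sets, 4691 with quantile normalization again, 4679 with centred arrays, 4385 with a variance trend and 4539 with group weights. Among the 9969 genes above the median level 4038 were called. Signal near background limits what can be seen of dim genes.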

Other observations

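Imprinted genes and Hox genes, which mark a cell's origin as much as its state, were also compared. Of 22 imprinted genes 7 rose (31.8%) and 2 fell (9.09%) in osteosarcoma, against 12.2% and 10.4% of all genes. Their median was 0.14, and 3 rose without osteoblast culture 1 or 3. Peg10, a retrotransposon-derived gene, was at 11.50, 12.54 and 11.74 in the lines, against 8.64, 9.56 and 8.78 in the osteoblasts and a mean of 10.6 in the pre-osteoblasts (2.93 ± 0.35, limma, adjusted p = 0.00405). The thyroid hormone deiodinase Dio3 was at 9.85, 8.13 and 9.50 against 6.49, 6.30 and 6.21 (2.83 ± 0.44, adjusted p = 0.00823). Its neighbours Dlk1 and Meg3 rose by 2.82 ± 0.60 and 2.14 ± 0.46, and were lowest in different lines, Dlk1 in the line labelled 716H and Meg3 in 494H. The calls of Dlk1 and Meg3 were lost without any 1 osteoblast culture (adjusted p up to 0.0858 and 0.0902), that of Meg3 also without the line labelled 716H. The 2 imprinted genes that fell were Igf2 and its clearance receptor Igf2r.

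Of 37 Hox genes 3 rose and 3 fell (8.11% each, against 12.2% and 10.4% of all genes), with a median of 0.02. Without osteoblast culture 1, 2 or 3, 1 of each remained. Without 493H, 1 rose and 5 fell. Hoxd8 was at 6.73, 6.54 and 7.17 in the lines and 5.48, 5.56 and 5.48 in the osteoblasts (1.30 ± 0.16, adjusted p = 0.00439). Hoxb7 was at 7.59, 7.51 and 7.59 against 8.03, 8.05 and 8.07 (-0.49 ± 0.05, adjusted p = 0.00293). Hoxc12 varied most between the lines, at 9.81, 7.72 and 10.73, around the 9.86, 9.69 and 9.71 of the osteoblasts.

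Of 11 genes often used as reference, 5 rose (45.5%) and 1 fell (9.09%), against 12.2% and 10.4% of all genes. These counts became 2 and 0 without osteoblast culture 1, 1 and 0 without culture 3, and 3 risen without culture 2. Tubb5 rose by 0.61 ± 0.09 and Actb was at 0.11 ± 0.06 (adjusted p = 0.278).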
